A study of Mus musculus with 12 samples.

Results

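The genes described here are those of the phagocyte NADPH oxidase that encode the membrane subunits gp91phox (Cybb) and p22phox (Cyba), the cytosolic subunits p47phox (Ncf1) and p40phox (Ncf4), and the small GTPase Rac2. They were picked out by their gene symbols, as a set proposed with earlier results of these data known, and make up 5 of the 55335 genes listed in the count tables. RNA was sequenced from sorted neutrophils (CD45+ CD11b+ Ly6G+ F4/80-) of 3 groups of 4 mice, all 10 weeks old, on an FVB background and kept under SOPF conditions. The first group was tumor-associated neutrophils (TANs) from the mammary tumors of PyMT mice, in which the polyoma virus middle T antigen is expressed in the mammary epithelium from the mouse mammary tumor virus promoter, and the second was TANs from tumors of PyMT-Cxcr2-/- mice, which carry the same transgene and lack Cxcr2 in every cell. The third was bone marrow (BM) neutrophils of WT mice, which have neither the transgene nor a tumor, so that tissue of origin and genotype cannot be told apart between TANs and WT BM neutrophils.

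The oxidase of neutrophils transfers electrons from cytosolic NADPH to oxygen and releases superoxide into the phagosome or outside the cell. Cybb and Cyba proteins form the membrane core, flavocytochrome b558, which is inactive in resting cells. On stimulation the complex that holds p47phox and p40phox moves from the cytosol to this core together with GTP-bound Rac. Loss of gp91phox, p22phox, p47phox or p40phox in humans causes chronic granulomatous disease. Neutrophils make most of this machinery while they mature in the bone marrow, and macrophages and other myeloid cells use the same genes.

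In the GRCm38 annotation Cybb lies on chrX:9435252-9487771 (minus strand), Cyba on chr8:122424776-122432930 (minus), Ncf1 on chr5:134220053-134229625 (minus), Ncf4 on chr15:78244801-78262580 (plus) and Rac2 on chr15:78559167-78572783 (minus). Ncf4 and Rac2 are neighbours on the same chromosome, 296.586 kb apart and on opposite strands. All 5 are protein coding, and of these only Ncf1 has exons that overlap those of another gene, Gtf2ird2 on the opposite strand. Its counts are uncertain as far as the strand setting of the counting is not given. Rac1 and Cybc1, described below, overlap Daglb and Hexdc in the same way. The sequences upstream of Cybb, Ncf1 and Cyba are shown because the transcription factors described below are known to act on such sequences. They are the RefSeq bases that end just before the annotated transcript start (GRCm38.p6, written 5′ to 3′ on the gene's strand), with 250 bases for Cybb (chrX:9469325-9469574, inside the longer GENCODE gene), 250 for Ncf1 (chr5:134229626-134229875) and 100 for Cyba (chr8:122432941-122433040). Capitals mark GAAANNGAAA or its reverse complement, a form of the element bound by interferon regulatory factors.
Cybb: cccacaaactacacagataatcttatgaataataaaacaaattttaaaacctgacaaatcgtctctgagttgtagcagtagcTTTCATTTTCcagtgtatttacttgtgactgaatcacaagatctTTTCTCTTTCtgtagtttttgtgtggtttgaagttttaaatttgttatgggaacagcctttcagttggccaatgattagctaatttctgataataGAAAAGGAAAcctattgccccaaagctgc
Ncf1: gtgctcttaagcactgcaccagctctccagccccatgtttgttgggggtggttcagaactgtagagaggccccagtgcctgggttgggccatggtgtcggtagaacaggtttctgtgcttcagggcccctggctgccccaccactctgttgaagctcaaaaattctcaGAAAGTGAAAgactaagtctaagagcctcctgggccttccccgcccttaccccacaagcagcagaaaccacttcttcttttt
Cyba: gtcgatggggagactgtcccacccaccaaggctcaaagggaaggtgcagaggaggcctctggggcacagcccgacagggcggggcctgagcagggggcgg
Searched on both strands over 250 bases, GAAANNGAAA occurred 3 times upstream of Cybb, with first bases 168, 124 and 29 bases before the start, once upstream of Ncf1 at 82 bases and not upstream of Cyba. Of 32851 windows of the same length, 2.98% held it. The PU.1 core AGGAA occurred once upstream of Cybb, at 25 bases, where it overlaps the GAAANNGAAA nearest the start, and was not found upstream of Ncf1 or Cyba, while 60.3% of all windows held it. CCAAT occurred once upstream of Cybb, at 56 bases (33.8% of windows), and TTGCNNAA, a form of the C/EBP element, in none of these 3 windows (9.56%). These are matches of letters and not sites of binding.

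The 12 libraries held 25032704 to 51351569 counts assigned to genes. Cxcr2, the deleted gene, was at 9.39 ± 0.576 CPM (counts scaled to a common library size; SD, n = 4) in PyMT-Cxcr2-/- TANs, against 2036 ± 195 in WT BM neutrophils and 1198 ± 224 in PyMT TANs. Summed over the markers of each list, the 9 neutrophil markers were at 81919 to 109928 CPM in WT BM neutrophils, 19280 to 31695 in TANs without Cxcr2 and 9891 to 15830 in PyMT TANs, and none was at 0 in any group. Ly6g, the antigen of the sort, had the same order, with 549 ± 85.3, 125 ± 36.8 and 35.7 ± 12.2 CPM, while Csf3r, the G-CSF receptor, was at 3959 ± 246, 4778 ± 655 and 3773 ± 752 CPM. In the same order of groups, the macrophage list was at 64.9 to 94.1, 1808 to 4347 and 1513 to 4507 CPM. Markers of immature neutrophils went the other way, at 28837 to 45654, 1999 to 6406 and 541 to 779 CPM. Between the TAN groups this sum rested on Ltf, Ngp and Camp. They had means of 1481, 1494 and 244 CPM without Cxcr2 and of 269, 246 and 38.1 in PyMT TANs. Of 7 genes of this list tested there, 4 had a log2 fold change above 0 and 3 below. Mammary epithelial markers, in the same order of groups, were at 0.06 to 0.516, 77.6 to 308 and 46.7 to 431 CPM. The part of these cells in the results below was not tested, and in RNA from sorted populations fewer cells of a type and less RNA per cell cannot be told apart.

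All 5 oxidase transcripts were abundant in all 3 groups. Per length of exon (RPKM), Rac2 was highest in WT BM neutrophils at 658 ± 97.6, followed by Cyba at 534 ± 102, Ncf1 at 493 ± 62.7, Ncf4 at 413 ± 31.4 and Cybb at 393 ± 67.8 (SD, n = 4), and each neighbouring pair in this order overlapped. These levels stood at the 99.4% to 99.7% point of the 13646 protein-coding genes ranked. The order of genes depends on the length used, here the union of exons. For Cyba this is 1039 bases, and its longest transcript has 744. In PyMT TANs the order was Ncf4 at 212 ± 39.5, Rac2 at 178 ± 33.9, Cyba at 132 ± 33.1, Ncf1 at 120 ± 17.1 and Cybb at 53.3 ± 14.3 RPKM. In PyMT-Cxcr2-/- TANs it was Rac2 at 290 ± 58.6, Ncf4 at 263 ± 45.3, Cyba at 202 ± 22.4, Ncf1 at 171 ± 40.6 and Cybb at 93.4 ± 26.8 RPKM. Neighbouring genes overlapped in both TAN groups except for Cybb, whose highest RPKM was below the lowest of Ncf1, at 68.5 against 103 in PyMT TANs and at 132.4 against 132.8 in PyMT-Cxcr2-/- TANs. Cybb was thus last in every group, and Ncf4 stood below Ncf1 and Cyba in WT BM neutrophils with overlapping values, and above both in the TANs, where it overlapped only with Cyba in PyMT-Cxcr2-/- TANs.

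**Figure D1:**
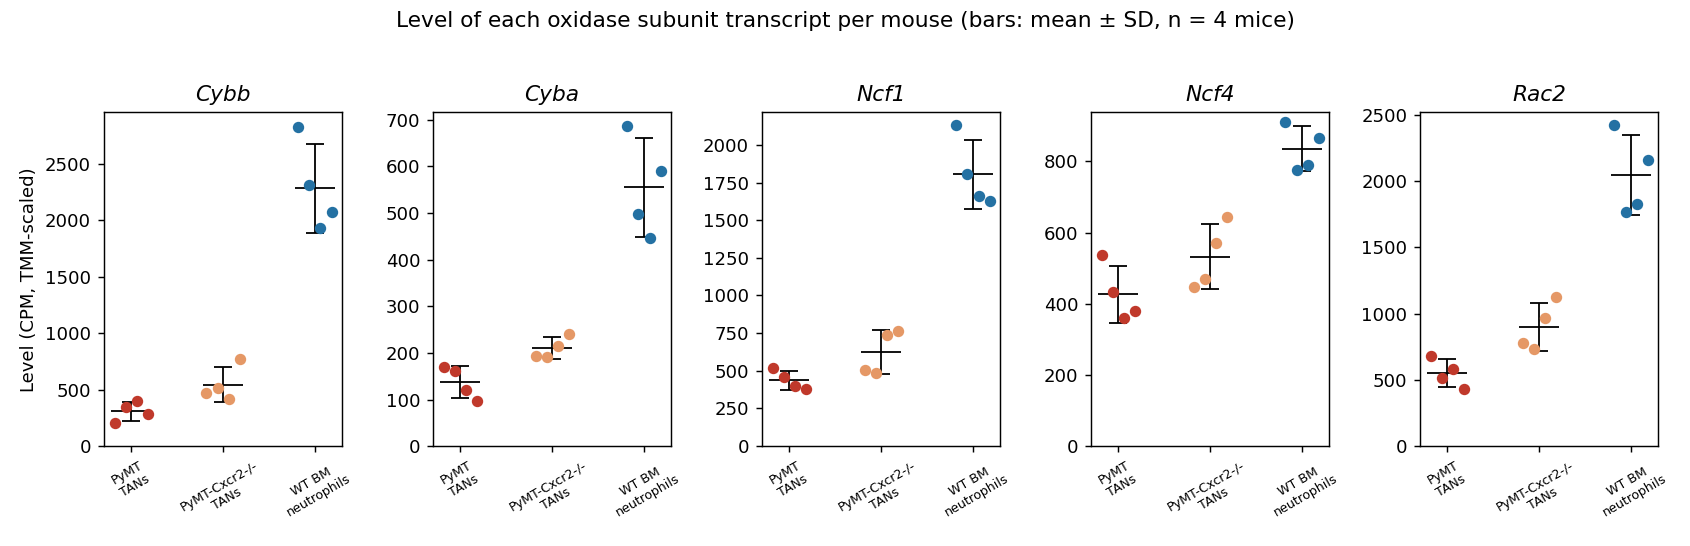
TMM-scaled CPM (vertical axes, each starting at 0 and with its own scale) of the 5 oxidase subunit transcripts in each mouse of the 3 groups, with mean and SD (n = 4). For each gene all 4 WT BM libraries lie above all 8 TAN libraries, and the gap is narrowest for Ncf4 (at most 643 CPM in TANs and at least 775 in WT BM neutrophils).

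Compared with WT BM neutrophils, PyMT TANs had lower levels of all 5 transcripts, from 7.04-fold for Cybb to 1.87-fold for Ncf4. Cybb, the catalytic subunit that carries the flavin and the hemes, was at 206, 350, 398 and 284.5 CPM in replicates 1 to 4 of PyMT TANs and at 2826, 2313, 1928 and 2075 in those of WT BM neutrophils. The lowest BM library was thus well above the highest TAN library. Its log2 fold change was -2.82 ± 0.22 (SE; edgeR quasi-likelihood test, Benjamini-Hochberg adjusted p = 1.34e-06). Cyba, which stabilises Cybb in the membrane, was at 169.7, 160.3, 121.2 and 95.9 CPM in PyMT TANs and at 686.5, 496.9, 446.9 and 590.6 in WT BM neutrophils. The groups did not overlap, and the log2 fold change was -1.96 ± 0.20 (edgeR, adjusted p = 9.65e-06).

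Ncf1, the organiser that binds Cyba once it is phosphorylated, was at 516.3, 459.5, 397.9 and 378.1 CPM in PyMT TANs and at 2129, 1805, 1661 and 1624 in WT BM neutrophils, again without overlap. It fell by 1.98 ± 0.15 on the log2 scale (edgeR, adjusted p = 8.86e-07). Ncf4, whose PX domain binds a phosphoinositide of the phagosome, was at 538.1, 431.7, 359.8 and 379.5 CPM in PyMT TANs and at 910.0, 774.6, 791.1 and 865.0 in WT BM neutrophils. Its fall was the smallest of the 5, at -0.90 ± 0.14 (edgeR, adjusted p = 0.00022). Rac2, the Rac of hematopoietic cells, was at 676.2, 515.7, 585.1 and 427.7 CPM against 2418, 1769, 1828 and 2157, and its log2 fold change was -1.83 ± 0.17 (edgeR, adjusted p = 4.33e-06).

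Thus 5 of 5 passed both thresholds of a call (adjusted p under 0.05 and at least 1.5-fold) as lower in PyMT TANs, where 23.2% of the 17153 genes tested were called lower, and 5 of 5 did not overlap, as did 29.5% of all genes in this direction. Their median log2 fold change was -1.96, against 0.09 for all genes tested. Without the TMM factors, which shifted the median of all genes by 0.44 in this comparison, all 5 remained lower, but Ncf4 at -0.46 was no longer past 1.5-fold. The libraries of PyMT TANs also had more of the macrophage markers and less of the immature neutrophil markers, in the ranges given above.

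PyMT-Cxcr2-/- TANs were compared with the same 4 WT BM libraries, so that the results for the TAN groups share their controls. Cybb was at 470.7, 513.0, 417.7 and 768.9 CPM in PyMT-Cxcr2-/- TANs, 3.84-fold lower than in WT BM neutrophils (log2 fold change -1.94 ± 0.19, edgeR, adjusted p = 1.07e-06). Cyba was at 193.5, 191.5, 213.9 and 241.5 CPM and had fallen by 1.27 ± 0.14 on the log2 scale (edgeR, adjusted p = 2.77e-06). Ncf1 was at 506.4, 486.4, 740.5 and 765.2 CPM, and its log2 fold change was -1.40 ± 0.17 (edgeR, adjusted p = 5.66e-06). All 12 of these values were below the lowest BM library of the same gene.

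Rac2 was at 774.3, 730.1, 969.2 and 1123 CPM, with a log2 fold change of -1.05 ± 0.16 (edgeR, adjusted p = 4.6e-05). Ncf4 was at 446.1, 469.3, 570.6 and 642.9 CPM, and its log2 fold change of -0.52 ± 0.13 (edgeR, adjusted p = 0.00278) was under the limit of 1.5-fold, although its groups did not overlap. Hence 4 of 5 were called lower, beside 25.1% of the 17732 genes tested, and 5 of 5 did not overlap, beside 33.8%. The median log2 fold change of the 5 was -1.27, and that of all genes tested 0.09. The call of Ncf4 turned on the setting, since it was past both thresholds in 4 of 19 alternatives, among them the fit of all 12 libraries (-0.65) and the fit without replicate 4 of PyMT-Cxcr2-/- TANs (-0.62).

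**Figure D2:**
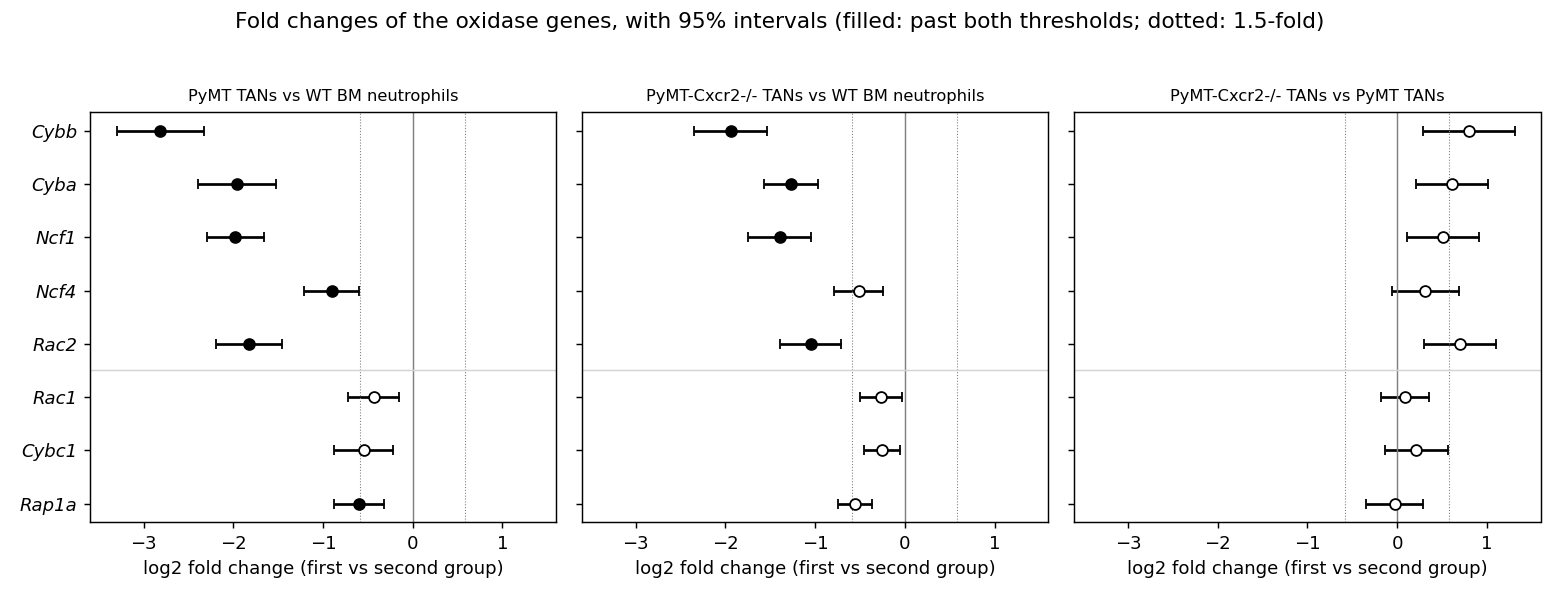
Log2 fold change (horizontal axis) of the 5 oxidase subunit genes and, under the line, of 3 genes for other parts of the oxidase, in the 3 comparisons, with 95% intervals from the fit. Filled points passed both thresholds and dotted lines mark 1.5-fold: Cybb was lowest at -2.82 and -1.94 against WT BM neutrophils, and in the comparison of the TANs all 5 subunit genes were above 0 without a call.

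The direct comparison of the TANs is between tumors of mice with Cxcr2 and of mice that lack it in every cell. The authors reported heavier tumors with more neutrophils and fewer macrophages in PyMT-Cxcr2-/- mice. Loss of Cxcr2 in the neutrophils and these differences of the tumors cannot be told apart. Each of the 5 subunit transcripts had a higher mean in PyMT-Cxcr2-/- TANs than in PyMT TANs, by 1.24-fold to 1.75-fold, and none passed the adjusted threshold. Cybb had a log2 fold change of 0.81 ± 0.23 (edgeR, adjusted p = 0.106), Rac2 of 0.70 ± 0.18 (adjusted p = 0.0798) and Cyba of 0.62 ± 0.18 (adjusted p = 0.117). For these 3 genes the groups did not overlap, as for 6.33% of all 18463 genes tested in this direction. The gaps were small, since the highest PyMT library and the lowest PyMT-Cxcr2-/- library were at 398 and 418 CPM for Cybb, at 170 and 192 for Cyba, and at 676 and 730 for Rac2.

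Ncf1, with a log2 fold change of 0.51 ± 0.18 (edgeR, adjusted p = 0.196), and Ncf4, with 0.31 ± 0.17 (adjusted p = 0.439), overlapped between the TAN groups. Without adjustment 4 of 5 had a p under 0.05, all but Ncf4, beside 7.58% of all genes that were higher in PyMT-Cxcr2-/- TANs at this limit. By the rule of a call the count was 0 of 5, beside 1.38% of all genes called higher, and 5 of 5 had a log2 fold change above 0, as did 44.0% of all genes. The 95% intervals of these log2 fold changes ran from 0.30 to 1.32 for Cybb, from 0.21 to 1.02 for Cyba, from 0.11 to 0.91 for Ncf1, from -0.06 to 0.69 for Ncf4 and from 0.30 to 1.11 for Rac2. DESeq2 called 3 of the 5, namely Cybb (adjusted p = 0.015), Cyba (0.0324) and Rac2 (0.0104), beside 691 of 13001 genes called higher. The fit of all 12 libraries called Cybb and Rac2, beside 579 of 19212 genes called higher. All 5 were above 0 under each of 19 alternatives. Of the neutrophil marker list 6 of 9 genes were called higher in the TANs without Cxcr2, whereas of the macrophage list 0 of 9 tested genes were called by edgeR and 0 had an unadjusted p under 0.05. The part of either list in the levels of the subunits was not tested.

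Among the mice of a TAN group, Cybb departed from the other genes in some libraries and went with them in others. In replicates 1, 2 and 4 of PyMT-Cxcr2-/- TANs and replicate 4 of PyMT TANs, all 5 genes lay on the same side of their group means, with replicate 4 of PyMT-Cxcr2-/- TANs highest for each (Cybb 0.54 and the others 0.21 to 0.34 above). Replicate 1 of PyMT TANs had the lowest Cybb of its group, 0.54 below the group mean on the log2 scale, and the highest Cyba, Ncf1, Ncf4 and Rac2, which were 0.25 to 0.35 above theirs. Replicate 3 of PyMT TANs had the highest Cybb, 0.40 above the mean, with Rac2 0.11 above its mean and Cyba, Ncf1 and Ncf4 0.14, 0.13 and 0.23 below theirs. Replicate 3 of PyMT-Cxcr2-/- TANs was again lowest for Cybb, at -0.34, and above the mean for the other genes, by 0.03 to 0.28. Over the 8 TAN libraries Pearson's r of log2 CPM was 0.36 to 0.66 between Cybb and each of the others, and 0.85 to 0.94 among the other 4. These points share the libraries, their scaling and the group difference, and the values are a description.

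The macrophage marker list was at 1513, 4168, 4507 and 3167 CPM in replicates 1 to 4 of PyMT TANs, which is the order of Cybb in these mice. In PyMT-Cxcr2-/- TANs it was at 3517, 4347, 2143 and 1808 CPM, and there replicate 4 had the highest Cybb and the lowest sum of macrophage markers. Replicate 4 also had the highest immature neutrophil sum of its group, 6406 CPM against 1999 to 2621 in the other 3 mice. In this group most of that sum came from Ltf, Ngp and Camp. The part of either list in the levels of Cybb was not tested.

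**Figure D3:**
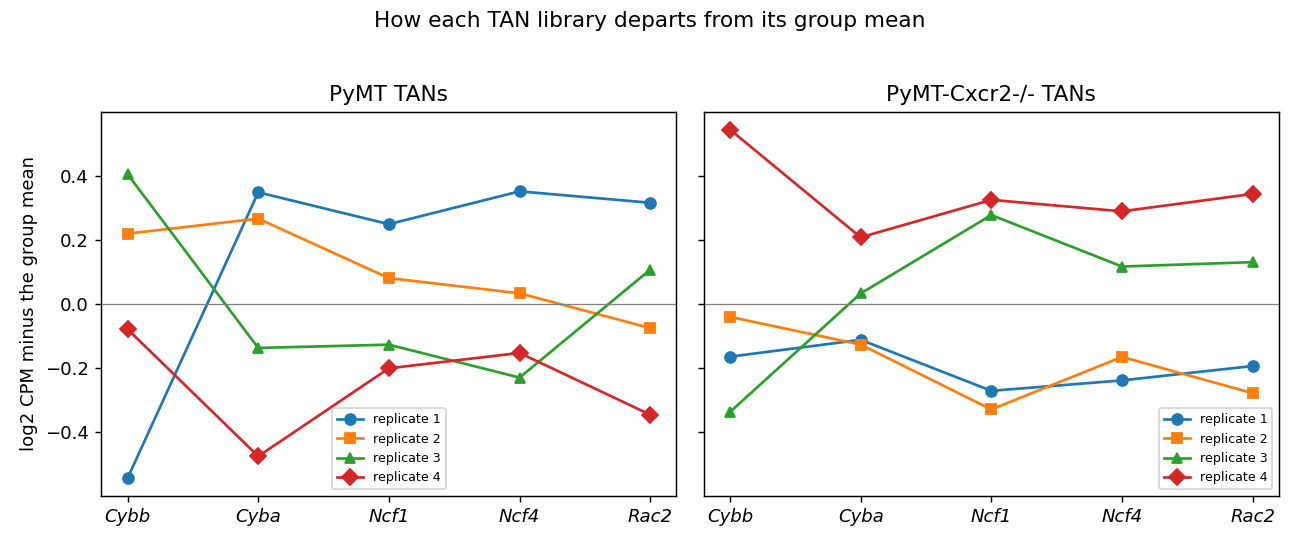
Log2 CPM minus the group mean (vertical axis) of the 5 subunit genes in each library of PyMT TANs (left) and PyMT-Cxcr2-/- TANs (right), 1 line per mouse. Replicate 1 of PyMT TANs goes from -0.54 for Cybb to 0.35 for Cyba and crosses the other lines of its panel between these genes. Replicate 3 of PyMT-Cxcr2-/- TANs goes from -0.34 to 0.03 and crosses the lines of replicates 1 and 2 there, but not that of replicate 4.

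Ratios of paired transcripts within a library do not depend on the scaling between libraries, and 3 were tested in the 3 comparisons with two-sided exact permutation tests, for which 0.0286 is the smallest p that 4 against 4 mice allow. The ratio of Cybb to Cyba, the partners of the membrane core, was 0.742 ± 0.0856 (RPKM over RPKM, SD, n = 4) in WT BM neutrophils. It was 0.217, 0.39, 0.587 and 0.531 in the 4 PyMT TAN libraries and 0.435, 0.479, 0.349 and 0.57 in the PyMT-Cxcr2-/- TANs, all below the lowest BM value of 0.628. The log2 differences from WT BM neutrophils were -0.87 and -0.71 (exact permutation p = 0.0286 and BH adjusted p = 0.0367 for each), and the first was -0.58 without replicate 1 of PyMT TANs. Between the TAN groups the difference was 0.16 (exact p = 0.743), and it was -0.13 without that mouse.

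Per length of the union of exons, Ncf1 exceeded Ncf4 in WT BM neutrophils, with a ratio of 1.19 ± 0.121. It was below Ncf4 in each of the 8 TAN libraries, with 0.569 ± 0.0364 in PyMT TANs and 0.642 ± 0.0601 in PyMT-Cxcr2-/- TANs. The log2 differences from WT BM neutrophils were -1.06 and -0.89 (exact p = 0.0286, adjusted p = 0.0367 for each), and the difference between the TANs was 0.17 (exact p = 0.114, adjusted p = 0.129). Rac2 relative to Rac1, the ubiquitous Rac, was the ratio that set all 3 groups apart. It was 10.8, 10.7, 10.8 and 11.7 in WT BM neutrophils, 5.53, 5.54, 6.73 and 7.7 in PyMT-Cxcr2-/- TANs and 4.6, 3.87, 4.55 and 3.66 in PyMT TANs. No groups overlapped, and the log2 difference between PyMT-Cxcr2-/- and PyMT TANs was 0.60 (exact p = 0.0286, adjusted p = 0.0367 over the 9 comparisons). This ratio was 1.41 lower on the log2 scale in PyMT TANs and 0.80 lower in PyMT-Cxcr2-/- TANs than in WT BM neutrophils, with the same p for each. The counts of Rac1, like those of Ncf1, are uncertain as far as the strand setting is not given.

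**Figure D4:**
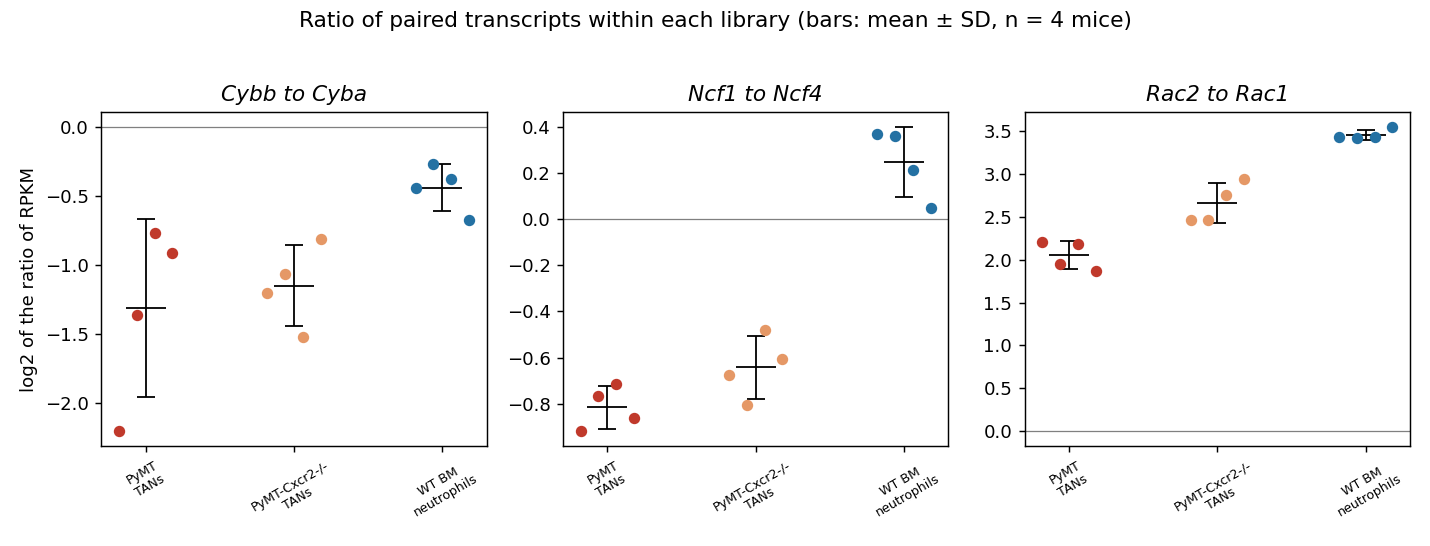
Log2 of the RPKM ratio (vertical axes, 0 is a ratio of 1) of Cybb to Cyba, Ncf1 to Ncf4 and Rac2 to Rac1 in each mouse, with mean and SD (n = 4). The ratios of all TAN libraries lie below those of WT BM neutrophils, and for Rac2 to Rac1 the PyMT-Cxcr2-/- TANs (2.47 to 2.94) lie between PyMT TANs (1.87 to 2.20) and WT BM neutrophils (3.42 to 3.54).

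Of the other parts of the oxidase 3 genes are shown, which are not all of them and do not stand for the rest. Of these, 1 was called lower in PyMT TANs than in WT BM neutrophils, beside 23.2% of all genes. None of the 3 was called in PyMT-Cxcr2-/- TANs, where 25.1% of all genes were called lower. Cybc1, a chaperone of the membrane core, had log2 fold changes of -0.55 ± 0.15 and -0.26 ± 0.09 from WT BM neutrophils, and Rac1 of -0.43 ± 0.13 and -0.27 ± 0.11. None of these 4 values reached 1.5-fold, although Cybc1 in PyMT TANs was called lower in 10 of 19 alternatives, and that of Rac1 in PyMT TANs became 0.01 without the TMM factors. Rap1a, a small GTPase that copurifies with the membrane core, was called lower in PyMT TANs at -0.60 ± 0.13 (edgeR, adjusted p = 0.00184), in 13 of 19 alternatives, and was at -0.55 ± 0.09 in PyMT-Cxcr2-/- TANs. The other NADPH oxidases and their partners were hardly detected, with sums over 9 genes of at most 10.95 CPM in any library. None passed the filter on low counts in PyMT TANs against WT BM neutrophils. Duox1, at 1.89 ± 1.7 CPM, and Duoxa1, at 0.992 ± 0.551, were called higher in PyMT-Cxcr2-/- TANs than in WT BM neutrophils, where no count of Duoxa1 was found. The sums of the list were nevertheless alike in the TANs, at 2.09 to 10.95 CPM in PyMT TANs and 1.78 to 9.11 in PyMT-Cxcr2-/- TANs. Neither gene was called between the TAN groups, and there the log2 fold change of Duox1 was below 0 in 19 of 19 alternatives.

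The enzymes that supply NADPH to the oxidase mostly went in the same direction as the subunits. Of 7 genes, 6 were called lower and 1 higher in each TAN group than in WT BM neutrophils, with median log2 fold changes of -1.87 and -1.16. Of all genes 23.2% were called lower and 30.1% higher in PyMT TANs, and 25.1% and 34.4% in PyMT-Cxcr2-/- TANs. Pgd, the second NADPH-forming step of the pentose phosphate pathway, was at 2358 ± 341 CPM in WT BM neutrophils, 765 ± 189 in PyMT-Cxcr2-/- TANs and 404 ± 85.3 in PyMT TANs. Its log2 fold changes were -2.48 ± 0.18 (edgeR, adjusted p = 8.21e-07) and -1.49 ± 0.17 (adjusted p = 3.98e-06), those of the transketolase Tkt -3.17 ± 0.19 and -1.91 ± 0.18, and those of the transaldolase Taldo1 -1.81 ± 0.13 and -1.16 ± 0.13. Me1, the cytosolic malic enzyme, rose in both, by 2.25 ± 0.70 and 2.92 ± 0.36, from 0.516 ± 0.127 CPM in WT BM neutrophils, and its call in PyMT TANs held in 13 of 18 alternatives and was lost with the replicate number as a block (edgeR, adjusted p = 0.0845).

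Between the TAN groups 3 of these 7 genes were called higher in PyMT-Cxcr2-/- TANs, beside 1.38% of all genes. All 7 had log2 fold changes above 0, as did 44.0% of all genes. The 3 called were Tkt at 1.19 ± 0.21 (edgeR, adjusted p = 0.019), G6pdx, the first and rate-limiting enzyme of the pathway, at 1.11 ± 0.22 (adjusted p = 0.0289) and Pgd at 0.92 ± 0.21 (adjusted p = 0.0479). Each of these 3 was higher in all 4 PyMT-Cxcr2-/- libraries than in any PyMT library, as were 6.33% of all genes. The calls rested on few mice, since 0 of the 7 genes were called without replicate 2 of PyMT TANs or without replicate 3 of PyMT-Cxcr2-/- TANs, and 1 was called without replicate 3 or 4 of PyMT TANs or replicate 4 of PyMT-Cxcr2-/- TANs. G6pdx was called in 12, Pgd in 7 and Tkt in 15 of 19 alternatives.

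Of 18 genes listed for the activation of the oxidase, 13 were called lower and 1 higher in PyMT TANs than in WT BM neutrophils, and in PyMT-Cxcr2-/- TANs 8 and 2. Over all genes the shares called lower and higher were 23.2% and 30.1% in PyMT TANs, and 25.1% and 34.4% in PyMT-Cxcr2-/- TANs. Arhgdib, an inhibitor of GDP dissociation in hematopoietic cells that holds Rac2 in the cytosol, fell by 3.02 ± 0.14 and 1.97 ± 0.16. Prkcd, a protein kinase C that phosphorylates p47phox, fell by 1.08 ± 0.15 and 0.77 ± 0.12, Dock2, an exchange factor for Rac, fell by 0.74 ± 0.10 in PyMT TANs, and Mapk14, the p38 kinase, fell by 0.79 ± 0.13 in PyMT-Cxcr2-/- TANs and by 1.49 ± 0.17 in PyMT TANs. Prkca rose by 3.58 ± 0.61 and 3.22 ± 0.42, and Syk was called higher in PyMT-Cxcr2-/- TANs at 0.71 ± 0.12. The level of Prkca is not given here. Of the 18 genes, 17 had a mean of at least 1 CPM in WT BM neutrophils, against 18 in each TAN group. Dock2 in PyMT-Cxcr2-/- TANs (-0.23 ± 0.11) and Syk in PyMT TANs (0.41 ± 0.13) did not pass both thresholds, and in the direct comparison of the TANs neither was called (edgeR, adjusted p = 0.115 and 0.518). There Arhgdib was the gene called of the 18, at 0.98 ± 0.18 (edgeR, adjusted p = 0.0191), in 12 of 19 alternatives, beside 1.38% of all genes called higher.

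Enzymes that remove superoxide and peroxide did not go one way. Of 14 genes, 7 were called higher and 5 lower in PyMT TANs than in WT BM neutrophils, and in PyMT-Cxcr2-/- TANs 8 and 5. These counts stand beside 30.1% of all genes called higher and 23.2% called lower in the first comparison, and 34.4% and 25.1% in the second. Txnrd1, the cytosolic thioredoxin reductase, rose by 2.75 ± 0.15 and 3.06 ± 0.12, the mitochondrial superoxide dismutase Sod2 by 2.25 ± 0.17 and 2.26 ± 0.14, and the peroxiredoxin Prdx1 by 3.62 ± 0.30 and 3.60 ± 0.25. The glutathione reductase Gsr fell by 1.47 ± 0.16 and 0.87 ± 0.14, Gpx1 by 1.45 ± 0.14 and 0.94 ± 0.13, and Prdx5 by 3.05 ± 0.20 and 2.07 ± 0.17. Between the TAN groups edgeR called 0 of 14, beside 255 genes called higher and 110 called lower of 18463. Of the 14 genes 4 had an unadjusted p under 0.05, in either direction. Of all genes 7.58% were higher at this unadjusted limit. The share in both directions, which would match the count of 4, is not given here.

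Of 9 transcription factors known to act on phagocyte oxidase genes, 3 were called higher and 3 lower in PyMT TANs than in WT BM neutrophils, and in PyMT-Cxcr2-/- TANs 4 and 3. Of all genes 30.1% were called higher and 23.2% lower in the former, and 34.4% and 25.1% in the latter, so that the counts of this list were near the background. Spi1, which encodes PU.1, fell by 1.12 ± 0.17 and 0.64 ± 0.13, and Cebpe, a factor of granule-forming precursors, by 5.81 ± 0.24 and 4.09 ± 0.60. Irf8, an interferon regulatory factor, rose by 3.86 ± 0.30 and 4.12 ± 0.25, and Cebpb by 1.67 ± 0.27 and 2.49 ± 0.14. Cebpa was called higher at 0.62 ± 0.22 and 0.92 ± 0.23, in 7 and 18 of 19 alternatives, and Rela in PyMT-Cxcr2-/- TANs at 0.72 ± 0.12. Between the TAN groups 0 of 9 were called by edgeR, and 3 had an unadjusted p under 0.05, namely Spi1, Cebpb and Cebpe, each with a higher mean in PyMT-Cxcr2-/- TANs. Of all genes 1.38% were called higher in that comparison, and 7.58% were higher at the unadjusted limit.

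**Figure D5:**
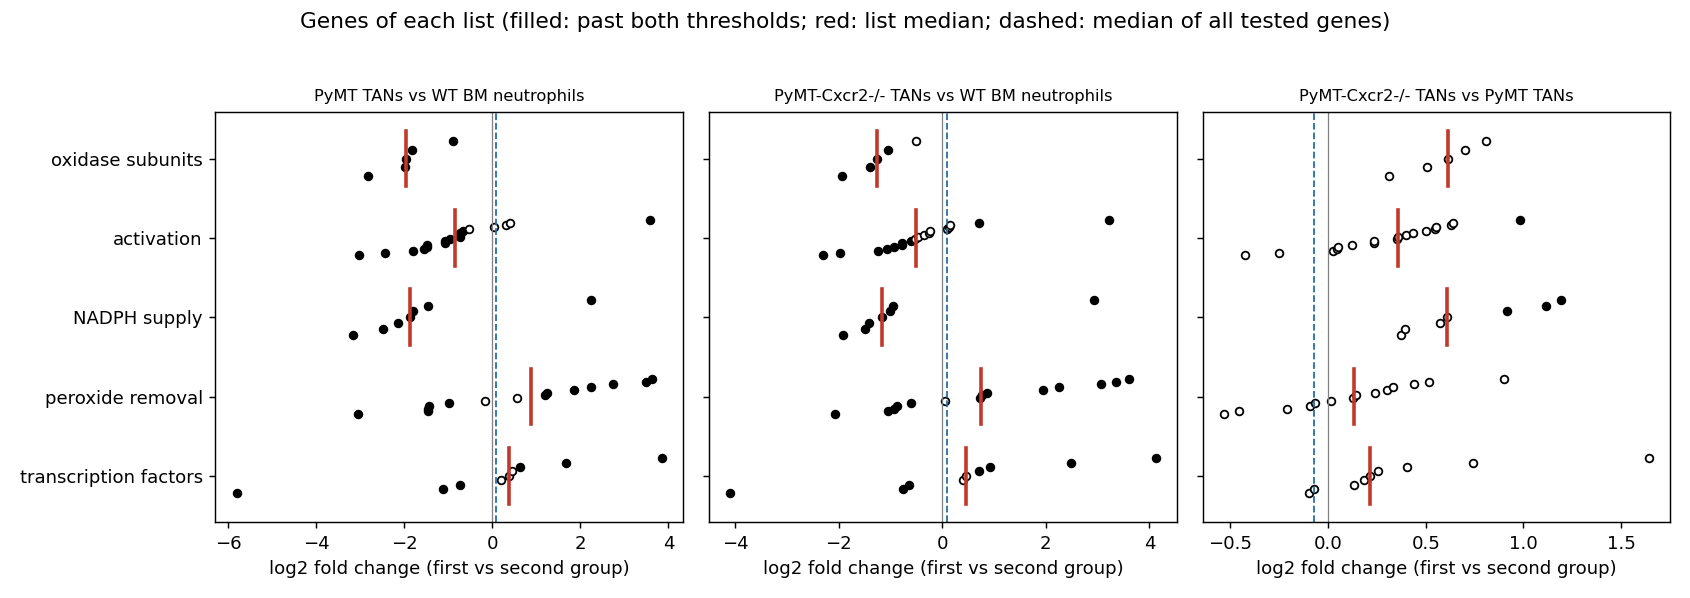
Log2 fold change (horizontal axes, with a different scale in each panel) of the genes of 5 lists in the 3 comparisons, 1 point per gene tested, filled where both thresholds were passed. The medians of the oxidase subunits (red, -1.96, -1.27 and 0.62) lie on the same side of the median of all genes (dashed, 0.09, 0.09 and -0.07) as those of the NADPH supply genes (-1.87, -1.16 and 0.61).

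Over the 12 libraries, the gene whose log2 CPM was most like that of Cybb among 3875 candidates was Ech1, a peroxisomal and mitochondrial enzyme of fatty acid oxidation (Pearson's r = 0.991), followed by Lpgat1 (0.988) and Abcc5 (0.987). For Cyba these were Aldh3b1 (0.994), Lypla2 and Arpc1b (0.992 each), for Ncf1 9930111J21Rik2, Aldh3a2 (0.995 each) and Tmem50b, for Ncf4 Slc25a37 (0.986), Zfyve27 and Apobr, and for Rac2 Hcls1, Pglyrp1 (0.996 each) and Gpsm3 (0.995). Over the 8 TAN libraries alone, Cybb was most like Pld1, a phospholipase D (0.991), Ech1 (0.962) and Lpgat1 (0.946). Cyba was then most like Plcb2 (0.995) and Tacc1, Ncf1 most like Tmem131l (0.991) and Dock5, Ncf4 most like Setd2 (0.977), Btk and Traf3ip3, and Rac2 most like Nin (0.994), Pgd and Dhrs7 (0.993 each). None of these genes stood in the lists of more than 1 of the 5 subunits. The r over 12 libraries mostly reflects the gap between TANs and WT BM neutrophils, and genes were not tested.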

How the data were processed

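RNA of 12 neutrophil libraries (3 groups of 4 mice) was depleted of ribosomal RNA and sequenced in pairs. The authors trimmed the reads, aligned them with STAR to mm10 and counted reads with HTSeq. What was deposited are raw gene counts, not normalized. Versions, annotation release and strand setting are not given in the sources used here. Reads not assigned to a gene, 46.3 to 60.5% of all reads listed for a library, were left out of the library sizes, and a count of 3 is worth 0.0584 to 0.12 CPM.

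Groups were taken from the sample titles. Each pair of groups was fitted with edgeR 4.0.16 in R 4.3.3 (quasi-likelihood test, robust, TMM factors, filterByExpr) over all genes, and a call needed a Benjamini-Hochberg (BH) adjusted p under 0.05 together with at least 1.5-fold. The SE of a log2 fold change is its size over the square root of F. CPM use TMM factors over the 12 libraries, whereas fold changes use those of the fit, and RPKM use the union of exons in GENCODE M21, which matched 55154 of 55335 genes. The fits were tested on simulated data. Alternatives were other scalings and filters, a fit of all 12 libraries, no robust estimation, a replicate block, DESeq2 1.42.0, an adjustment for GC content and length, other thresholds, and each mouse left out. Named genes were the 5 subunits, the other oxidase parts, up to 3 called genes in each direction per list and comparison with the highest mean CPM, and the 3 most alike genes, from protein-coding genes with a mean log2 CPM of at least 5 (prior count 2), over 12 and over 8 libraries. Some genes that this rule takes are not reported here. Further genes named for comparison were chosen after their values were seen. The members and the gene lists were chosen with earlier results of these data known. No replicates were duplicates, since all 18 pairs within groups differed by more than sampling noise (chi-square per degree of freedom 22.6 to 134.4).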

Additional observations from a re-analysis of the deposited data

Results flagged for a closer look

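The ratio of Rac2 to Rac1 gave both entries. Replicate 4 of WT BM neutrophils had a log2 ratio of 3.54, far from the other 3 mice of its group, which lay between 3.42 and 3.44. Of 39 groups of values examined for such a distant mouse 1 was found, and chance alone gives about 1 in 20. The other entry is the difference between the TANs given above, and not a second test. The log2 ratio differed by 0.60 (PyMT-Cxcr2-/- minus PyMT TANs, two-sided exact permutation p = 0.0286, the smallest that 4 against 4 mice allow). This p already means that the ratio was higher in 4 of 4 PyMT-Cxcr2-/- libraries than in any PyMT library.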

How the results depend on the processing

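Against WT BM neutrophils the number of subunit genes called stayed within 1.5 times its value in every alternative, and the direction of each of the 5 genes held in 19 of 19. The comparison of the TANs depended on the processing. Of all genes, 365 were called there (255 higher and 110 lower in PyMT-Cxcr2-/- TANs), against 597 with library totals alone (206 higher, 391 lower), 594 without a filter, 886 in the fit of all 12 libraries, 1039 with DESeq2, 215 with the GC and length adjustment, 19 at an adjusted p under 0.01 and 23 to 513 with a mouse left out. Of the 5 subunit genes 0 were called, against 3 without a filter, 2 with all 12 libraries, 3 with DESeq2 and 0 to 1 with a mouse left out, where Rac2 was called without replicate 1 of PyMT TANs. Same-numbered mice are different animals and did not deviate together (mean correlation -0.04, 0.05 and -0.13 in the 3 comparisons), so that their numbers do not pair them. With a replicate block 13 genes were called between the TANs, and 8 with the block and the GC and length adjustment, with 0 subunit genes in both. Of the NADPH supply genes 3 were called, and 0 with the block. These last counts were added after seeing the data. Library totals alone shifted the median log2 fold change of all genes by 0.44, 0.18 and -0.19 in the 3 comparisons and changed the share of calls that were higher from 56.4 to 72.8% in PyMT TANs against WT BM neutrophils and from 69.9 to 34.5% between the TANs. The causes were not tested. With a mouse left out the ratios are values with no test, since 4 against 3 mice cannot reach the threshold.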
